A study of Sus scrofa with 30 samples.

Results

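The genes described here are 9 markers of luminal mammary epithelium, chosen by name with earlier results of these data known. They are the keratins KRT7, KRT8, KRT18 and KRT19, the adhesion molecules EPCAM and CDH1, the transcription factors GATA3 and FOXA1, and the receptor KIT. All 9 were found, among 14907 reference genes with a deposited transcript, and they are represented by 12 of 61773 transcripts. The sows were multiparous Danish Landrace × Yorkshire half-siblings, and mammary parenchyma was taken at slaughter at 5 stages. Gestation was sampled on day 70 (mid-gestation, MG) and day 110 (late gestation, LG). Lactation was sampled on day 2 (early, EL) and day 10 (peak, PL) after farrowing, and involution on day 2 after the litter was weaned (W2), with 6 sows per stage. Each stage is thus a set of different animals, and each sample is a piece of whole tissue, not sorted epithelium.

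The mammary epithelium has an inner luminal layer, from which the milk-secreting alveolar cells arise, and an outer basal layer of contractile myoepithelial cells. Luminal cells are held in shape by simple-type keratin filaments, in which an acidic keratin (KRT18, KRT19) pairs with a basic one (KRT7, KRT8), and are joined to each other by E-cadherin, the product of CDH1. GATA3 keeps luminal cells differentiated and FOXA1 opens chromatin for hormone receptors, while KIT is a growth factor receptor of luminal progenitors that is also the defining receptor of mast cells.

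Expression is given in the deposited units, which added up to 997480 to 1002643 in every sample. Each value is corrected for transcript length, so levels can be compared between genes. At every stage 3 samples of the 6 hardly differed among themselves (by a median of at most 1.80 to 1.85%, depending on the stage), and their mean lay within 0.688 to 0.741% of the mean of the other 3. The other samples of a stage differed by 19.6 to 59.8%. The near-identical samples were therefore left out, and every stage has n = 3, for 15 samples in all. The sample records of 12 samples conflict: those named EL carry the stage name of mid-gestation and those named MG that of early lactation. The names were followed, and if the stage names were right the MG and EL values below would change places. In the counted samples named EL, the main milk proteins other than PAEP took 6.40 to 12.1% of units. In those named MG they took 1.19 to 2.95%. PL sample 2 stood apart from the rest. The 6 main milk proteins other than PAEP took 28.5% of its units, against 13.9% and 9.14% in PL samples 3 and 6, and its scaling factor by median ratio was 0.566, against 0.836 to 1.28 in the other 14 samples. Results of the 9 genes that rest on it are given with and without it, while those of other genes are given with it only.

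Against the mean of the other 4 stages, 4 of the 9 genes were lower at peak lactation: KIT, FOXA1, GATA3 and CDH1, of which CDH1 did not pass without PL sample 2. The 4 keratins and EPCAM did not pass. From PL to W2 the same 4 genes rose, by 3.99-fold for FOXA1, 3.68-fold for KIT, 2.03-fold for CDH1 and 1.73-fold for GATA3 on the log2(value + 0.5) scale. The log2 fold change of CDH1 was 1.02, and 0.55 without PL sample 2. These counts stand beside a shift of many other genes. At PL, 30.3% of all 26019 gene and locus rows passed (27.3% lower), with a median log2 fold change of -0.47 over all rows, and the median of the 9 members was -0.51. For W2 vs PL 32.8% of all rows passed (30.4% higher), with a median of 0.68 over all rows and 0.79 over the members. FOXA1 and KIT also passed for PL vs MG and PL vs LG. In the other 11 comparisons no member passed by limma. The unadjusted limma p was below 0.05 for 5 of the 9 in W2 vs EL, as for 25.1% of all rows, and for 5 in W2 against the rest, as for 27.1% of all rows. In the remaining 9 it was so for 0 to 3 members and 3.09 to 19.0% of rows. Few rows passed the adjusted test in these 11: 0.0115% for LG vs MG and W2 vs MG, 0.0269% for EL vs MG, 0.0154% for EL vs LG, 0.0346% for W2 vs LG, 4.62% for PL vs EL, 0.553% for W2 vs EL, and 0.0384, 0.0346, 0.0154 and 2.66% for MG, LG, EL and W2 against the rest. In bulk tissue, fewer cells of a type and less RNA per cell cannot be told apart. Tests were made with limma over all rows (Benjamini-Hochberg adjusted p below 0.05).

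**Figure D1:**
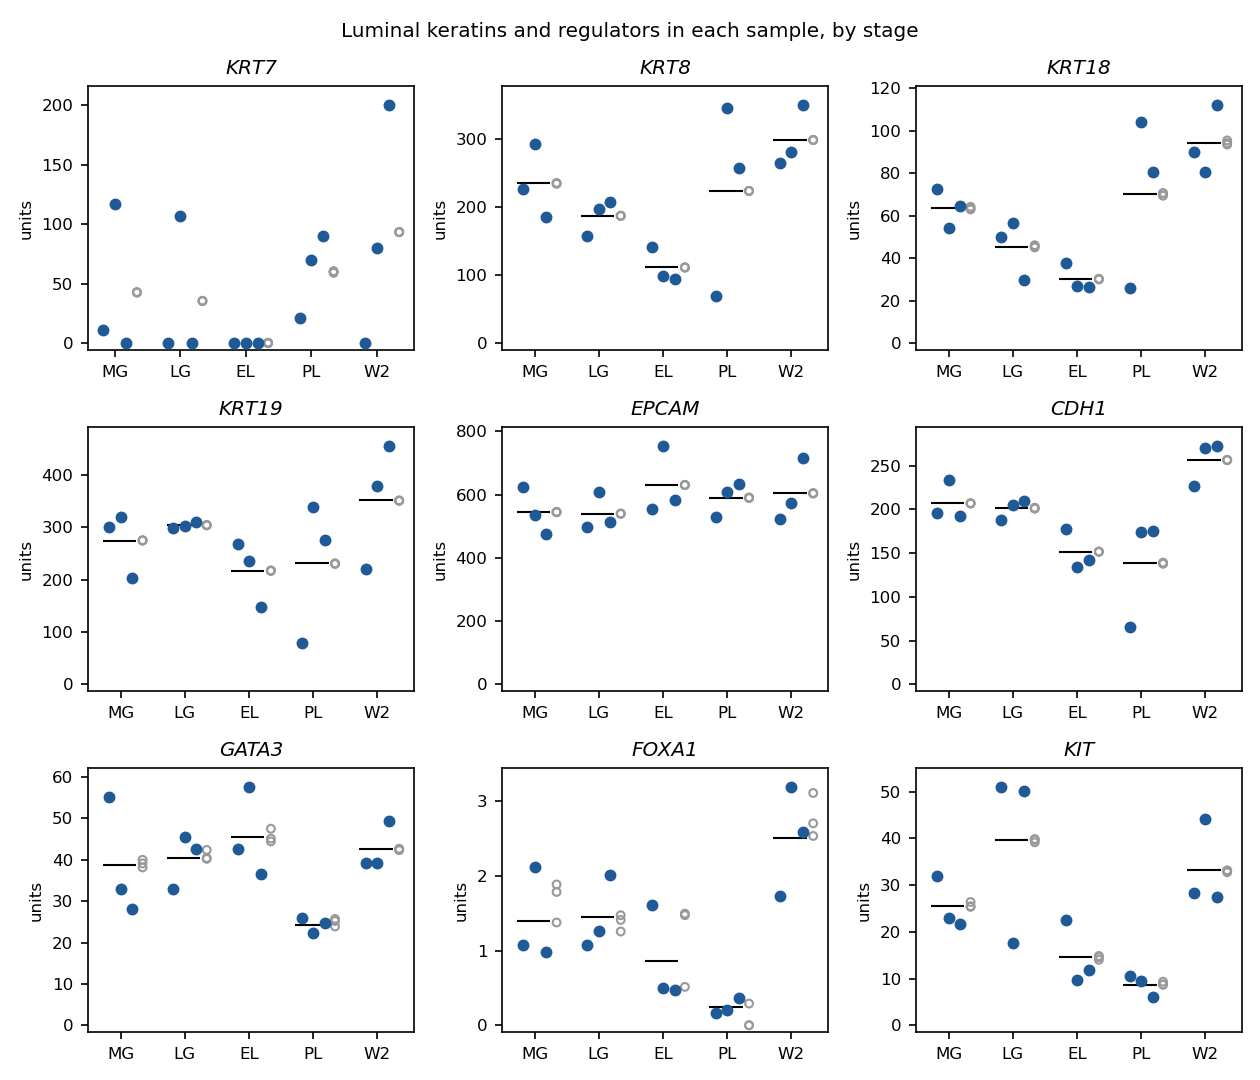
Units of the 9 genes in each sample (y axis, linear) by stage (x axis). Filled points are the 3 counted samples with their mean as a bar (no bar for KRT7, which was listed at 0 in 6 samples), and open points are the near-identical samples that were left out. GATA3 and FOXA1 at PL lay below every counted sample of the other stages.

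KRT8 and KRT18, the basic and acidic partners of the main luminal filament, lie on chromosome 5 of Sscrofa11.1 at 18172423 to 18180277 and 18217686 to 18221432, with 37408 bases and 1 other gene between them. KRT8 measured 227, 292 and 185 units at MG, 157, 197 and 207 at LG, 141, 98.6 and 94.6 at EL, 69.9, 345 and 257 at PL, and 265, 281 and 349.9 at W2. The EL samples were thus below every sample of MG, LG and W2, while PL sample 2 was the lowest of all 15. KRT18 measured 72.5, 54.2 and 64.4 units at MG, 50.2, 56.6 and 29.8 at LG, 37.6, 26.9 and 26.6 at EL, 26.0, 104 and 80.8 at PL, and 90.0, 80.8 and 112 at W2. As for KRT8, W2 had the highest mean (94.3 ± 16.1, SD, n = 3) and EL the lowest (30.4 ± 6.26, SD, n = 3).

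In the main fit, with all 15 samples, neither keratin passed in any comparison. Under median ratio scaling of the same samples, KRT18 passed in at least 1 of the 10 pairwise comparisons. In the main fit KRT8 at EL had a log2 fold change against the other stages of -1.002 ± 0.35 (SE, limma adjusted p = 0.49). That of KRT18 was -1.06 ± 0.33 (limma adjusted p = 0.44). The unadjusted p at EL was below 0.05 for 3 of the 9 members and 8.87% of all rows. The exact permutation test of 3 against 12 samples (two-sided, 1 of 45 such tests of the members) gave p = 0.020 for KRT8 and p = 0.022 for KRT18. When single samples were left out, the call at EL turned on PL sample 2. Without it, limma gave KRT8 at EL -1.18 (adjusted p = 0.013) and KRT18 -1.21 (adjusted p = 0.017), and 2.68% of all rows passed. The same omission made both higher at PL, by 0.62 (limma adjusted p = 0.046) for KRT8 and 0.79 (limma adjusted p = 0.030) for KRT18. At W2 they were then also higher, by 0.61 (limma adjusted p = 0.040) and 0.82 (limma adjusted p = 0.025). With that omission 21.4% of all rows passed at PL, with a median of -0.29 over all rows. At W2 13.2% passed, 92.7% of them higher, with a median of 0.32. With all samples, the W2 differences were 0.79 for KRT8 (limma adjusted p = 0.18) and 0.97 for KRT18 (limma adjusted p = 0.095). In PL sample 2 KRT8 was 3.68 to 4.94 times lower than in the other PL samples and KRT18 3.11 to 4.00 times lower.

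KRT8 and KRT18 kept close to each other. The ratio of KRT8 to KRT18 was 3.66 ± 0.094 (SD, n = 3) at EL, 3.07 ± 0.33 at PL and 3.18 ± 0.27 at W2, so PL sample 2 (2.69) was low in both genes alike. LG sample 4 (6.96) and MG sample 3 (5.39) had the widest ratios. Over the 15 samples, which share stages and a general shift of level, Pearson's r of the log2 values was 0.880 (rho 0.875). Among pairs of members only KRT19 and CDH1 had a higher r (0.882). By the same measure, among 5734 genes with a mean of at least 10 units, CSRP1 was among those most like KRT8 (r = 0.955), and those most like KRT18 were LOXL2 (0.921) and TGIF1 (0.898).

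KRT19, the smallest keratin, which lacks most of the tail domain, lies on chromosome 12 at 21115453 to 21119115. It measured 300.5, 320.4 and 204 units at MG, 299.7, 303 and 310.1 at LG, 268, 236 and 147 at EL, 78.5, 339 and 276 at PL, and 221, 378 and 456 at W2. No stage separated from its neighbour in the order of means, from 352 at W2 to 217 at EL, and no comparison passed. LG was the most even stage, with an SD of 5.32. Against KRT18, KRT19 was 7.24-fold higher at LG and 7.15-fold higher at EL but 3.23-fold higher at PL and 3.73-fold higher at W2. The differences between stages in that ratio gave exact permutation p of 0.068 at the lowest (EL, two-sided). The genes most like KRT19 were GLCE (r = 0.937) and EPS8 (0.934).

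KRT7, on chromosome 5 at 17553192 to 17570582, is represented by 1 transcript that RefSeq types as non-coding (XR_002343948.1). It was listed at 0 in all 3 EL samples, in 2 of 3 LG samples and in 1 W2 sample. The other values were 11.08, 117 and 0.228 units at MG, 107 in LG sample 3, 20.8, 69.5 and 90.1 at PL, and 80.0 and 200 at W2. PL was the only stage with all 3 counted samples above 1 unit. PABPC1, a gene of every cell, was also listed at 0 in 3 samples. The other widely expressed genes checked, among them ACTB, GAPDH, HPRT1 and TBP, were never listed at 0. Whether the 0 values of KRT7 are failed estimates was not tested, and no fold change is given. KRT7 and KRT8 are 601840 bases apart with 29 genes between them, 12 of them named keratins. Whether reads shared among similar keratins were divided between them was not tested.

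EPCAM, an epithelial adhesion glycoprotein, lies on chromosome 3 at 93169800 to 93185221. It was the most abundant member, at rank 134 of the 14907 reference genes, and the most even. It measured 624, 534 and 475 units at MG, 497, 608 and 514 at LG, 555, 753 and 583 at EL, 531, 607 and 633 at PL, and 523, 572 and 717 at W2. The highest sample was 1.59 times the lowest, against 5.01 for KRT8, 8.44 for KIT and 19.7 for FOXA1. All stages overlapped, and EPCAM at PL had a difference from the other stages of 0.04 ± 0.13 (log2 fold change ± SE, limma adjusted p = 0.86). Relative to the median of all rows, that is a difference of 0.51. When samples were scaled by median ratio, EPCAM was higher at PL by 0.60 (limma adjusted p = 0.019), and lower at W2 than at PL (-0.72, limma adjusted p = 0.029). Under that scaling, the median of all rows at PL was -0.07, and 54.7% of the calls were lower, against 90.0% as deposited.

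Set against EPCAM within a sample, KRT18 was lowest at EL. The ratio was 0.0677, 0.0358 and 0.0456 in the 3 EL samples and 0.172, 0.141 and 0.156 in the 3 W2 samples, with means of 0.0497 ± 0.0164 and 0.157 ± 0.0155 (SD, n = 3). EL and W2 did not overlap, but PL sample 2 (0.0489) fell within the EL range. The exact permutation test (two-sided, 3 against 12) gave p = 0.0088 for EL and p = 0.042 for W2. After adjustment over the 20 tests made on 4 ratios these became 0.18 and 0.30, so neither difference passed by that exact test. The genes most like EPCAM were CMTM8 (r = 0.888) and EEF1E1 (0.795).

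**Figure D2:**
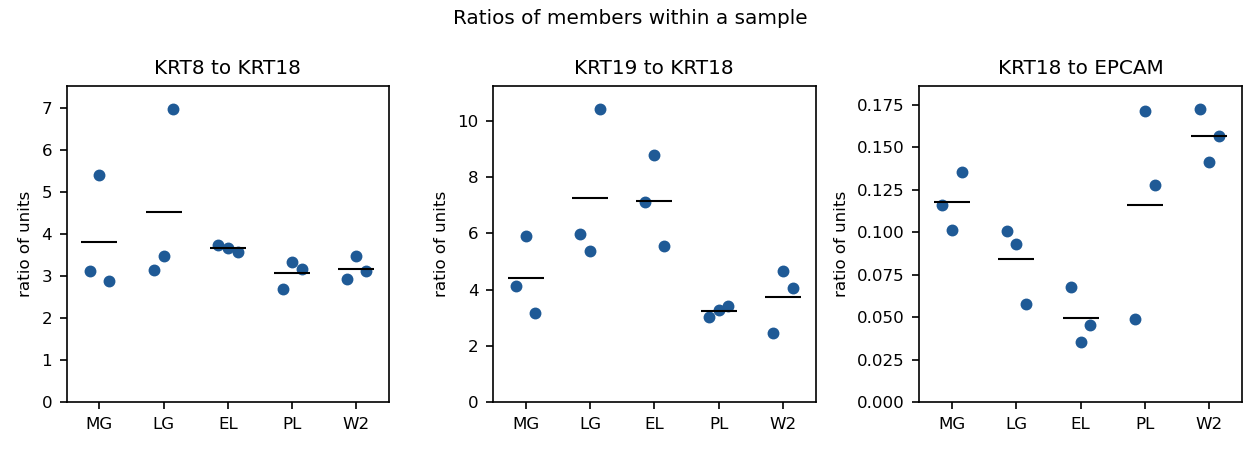
Ratios of units within each counted sample (y axis, linear, no unit) by stage (x axis), with a bar for the mean of 3 samples. KRT8 to KRT18 was 3.66 ± 0.094 at EL, and KRT18 to EPCAM was lowest at EL and highest at W2.

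CDH1, on chromosome 6 at 18075487 to 18155986, encodes the cadherin of epithelial junctions. It measured 196, 234 and 193 units at MG, 188, 206 and 210.1 at LG, 178, 134 and 142 at EL, 65.5, 174 and 175 at PL, and 227, 271 and 272 at W2. EL and PL lay below MG, LG and W2 without overlap, and PL sample 2 was the lowest. At PL the log2 fold change against the other stages was -0.66 ± 0.24 (SE, limma adjusted p = 0.0498; exact permutation p = 0.040, two-sided). Relative to the median of all rows, this was -0.19. Without PL sample 2 the difference was -0.20 (limma adjusted p = 0.27), and under median ratio scaling it was -0.10 (limma adjusted p = 0.68). From PL to W2 CDH1 rose by 1.02 ± 0.30 (limma adjusted p = 0.021), which was 0.34 above the median of all rows. Without PL sample 2 this rise still passed but was 0.55, where the median of all rows was 0.48. Without PL sample 2, CDH1 was instead lower at EL (-0.46, limma adjusted p = 0.038) and higher at W2 (0.49, limma adjusted p = 0.016). In that setting 2.68% of all rows passed at EL and 13.2% at W2, with medians of -0.25 and 0.32 over all rows. Leaving out W2 sample 3 or 6 raised the adjusted p of W2 vs PL to 0.063 in both. That call also ended under median ratio scaling (0.28, limma adjusted p = 0.35) and quantile normalization (0.46, limma adjusted p = 0.11), and with the compared stages alone.

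The catenins that tie E-cadherin to the actin skeleton were listed with other junction genes, among them the membrane proteins NECTIN2 and NECTIN4. Of these 8 genes, 3 were lower at PL (limma over all rows, list median -0.57), where 27.3% of all rows were lower with a median of -0.47. For W2 vs PL 5 were higher (list median 0.91), where 30.4% of all rows were higher with a median of 0.68. NECTIN2 had a difference of 0.05 at PL and JUP (plakoglobin) of -0.05 for W2 vs PL, and neither passed. CTNNB1, or beta-catenin, measured 493, 659.5 and 689 units at MG, 459.7, 421 and 548 at LG, 396, 234 and 262 at EL, 95.2, 289 and 245 at PL, and 619.8, 795 and 677 at W2. Its difference at PL was -1.37 ± 0.27 (limma adjusted p = 0.0030). CTNND1, a stabiliser of cadherin at the membrane, and CTNNA1, the alpha-catenin, were lower as well (-0.69 and -0.57, limma adjusted p = 0.016 and 0.043). PL sample 2 was the lowest sample for CTNNB1, CTNND1 and CTNNA1, and these calls were not repeated without it. CTNND1 measured 12.6, 28.8 and 25.7 units at PL. CTNNA1 measured 52.0, 120 and 103 units there, so PL samples 3 and 6 exceeded every EL sample (84.0 to 92.7). For W2 vs PL, VCL (vinculin, 1.01) also passed. Of 6 measured repressors of CDH1 and mesenchymal genes, 4 were lower at PL (list median -1.27), against 27.3% of all rows: SNAI2 (-1.61), VIM (-1.47), TWIST1 (-1.18) and SNAI1 (-1.06). For W2 vs PL 4 were higher (list median 1.46), against 30.4% of all rows. The gene whose level followed CDH1 most closely was ELF1 (r = 0.986).

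GATA3, on chromosome 10 at 63367684 to 63397977, had the smallest spread over the 15 samples after EPCAM (SD of 0.41 and 0.19 on the log2 scale). It measured 55.3, 32.9 and 28.1 units at MG, 32.8, 45.4 and 42.7 at LG, 42.6, 57.6 and 36.5 at EL, 26.1, 22.4 and 24.6 at PL, and 39.3, 39.1 and 49.3 at W2. All 3 PL samples were below all 12 others, which began at 28.1. PL sample 2 did not stand apart here. The PL difference was -0.74 ± 0.20 (log2 fold change ± SE, limma adjusted p = 0.014), a level 1.67-fold lower. The exact permutation p was 0.0022, the smallest that 3 against 12 samples can give. Relative to the median of all rows the difference was -0.27, and under median ratio scaling it was -0.19 (limma adjusted p = 0.65). From PL to W2 GATA3 rose by 0.79 ± 0.25 (limma adjusted p = 0.029), which was 0.11 above the median of all rows. That call was lost when PL sample 3 or 6 or W2 sample 3 or 6 was left out (limma adjusted p = 0.050 to 0.097). Under median ratio scaling the W2 vs PL difference was 0.05 (limma adjusted p = 0.95), and under quantile normalization it was 0.14 (limma adjusted p = 0.83). Compared with EL alone, where GATA3 had its highest mean, PL differed by -0.87 (limma adjusted p = 0.072). The genes most like GATA3 were PANK3 (r = 0.944) and TSPAN6 (0.937).

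The GATA3 level is the sum of 4 deposited transcripts, of 5 that RefSeq annotates. XM_021064070.1 carried most of it, with 23.3, 25.8 and 22.5 units at MG, 27.9, 28.7 and 34.8 at LG, 38.2, 51.5 and 25.5 at EL, 7.14, 12.1 and 23.7 at PL, and 34.2, 35.6 and 42.6 at W2. PL sample 6 alone reached the range of the other stages. This transcript was lower at PL (-1.28 ± 0.29, limma over all transcripts, adjusted p = 0.019) and higher at W2 than at PL (1.51, limma adjusted p = 0.026). Of all transcripts, 6.85% passed in the first comparison and 7.13% in the second. Without PL sample 2 the differences were -0.88 (limma adjusted p = 0.087) and 1.11 (limma adjusted p = 0.062). Under median ratio scaling they were -0.73 (limma adjusted p = 0.13) and 0.80 (limma adjusted p = 0.22), so both calls were lost there too.

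The other GATA3 transcripts were uneven. XM_021064073.1 measured 31.1, 6.87 and 5.19 units at MG and 16.4, 6.55 and 0 at PL, and passed in no comparison. It made up 62.9% of GATA3 in PL sample 2 and was listed at 0 in PL sample 6. NM_001044567.1, a minor form, measured 2.51, 1.202 and 0.916 units at PL against 0.173 to 0.954 in the 12 other samples, of which the highest exceeded the lowest PL sample. Its share of GATA3 was 6.25% ± 3.06 at PL (SD, n = 3) and 1.18% in the other stages on average. The exact permutation p of that share was 0.0022 (two-sided), or 0.044 after adjustment over the 20 tests of shares, while the level itself did not pass (1.04 ± 0.33, limma adjusted p = 0.084). XM_021064071.1 was listed above 0 in PL sample 3 only, at 2.57 units.

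**Figure D3:**
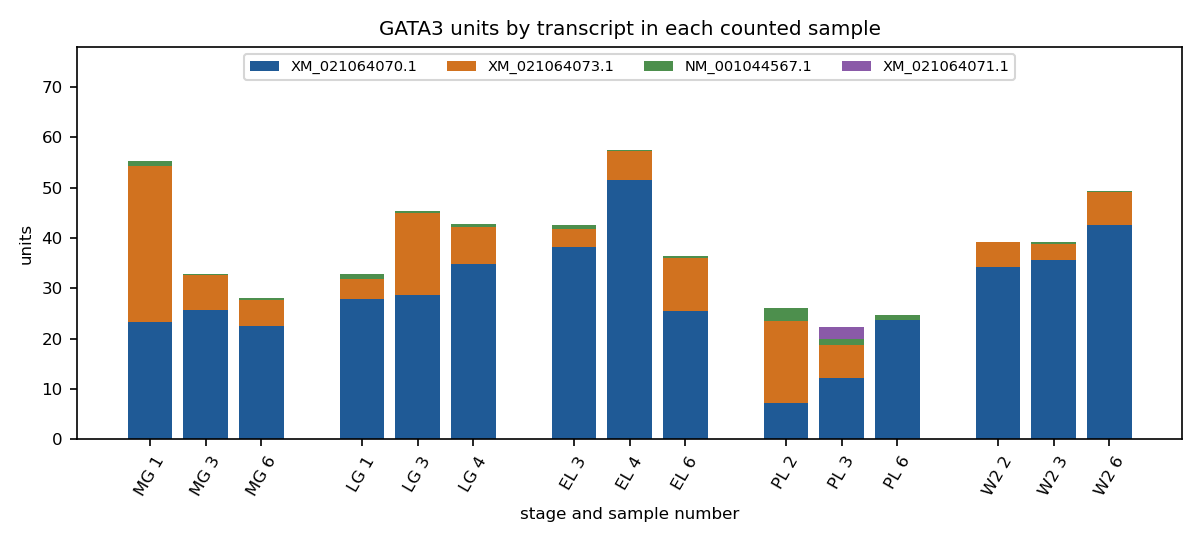
Units of GATA3 (y axis, linear from 0) in each counted sample (x axis, stage and sample number), stacked by transcript. XM_021064070.1 was at 7.14 and 12.1 units in PL samples 2 and 3 but was 23.7 units in PL sample 6.

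FOXA1, on chromosome 7 at 62471233 to 62479638, was by far the least abundant member, at rank 11741 of 14907. It measured 1.07, 2.12 and 0.979 units at MG, 1.07, 1.26 and 2.01 at LG, 1.61, 0.494 and 0.475 at EL, 0.161, 0.2003 and 0.361 at PL, and 1.73, 3.19 and 2.59 at W2. All 3 PL samples were below the other 12, and the W2 samples were the highest except for 2 samples, MG sample 3 and LG sample 4, which exceeded the lowest W2 sample. The PL difference was -1.37 ± 0.29 (log2 fold change ± SE, limma adjusted p = 0.0045; exact permutation p = 0.0022, two-sided), which was -0.90 relative to the median of all rows. At such low levels the added 0.5 understates the fold change. FOXA1 was lower at PL than at MG (-1.31, limma adjusted p = 0.023) and at LG (-1.37, limma adjusted p = 0.028), where 25.2% and 14.7% of all rows passed. These pairwise calls were lost without PL sample 2 (limma adjusted p = 0.056 and 0.065), without MG sample 3 (0.094, PL vs MG) and without LG sample 3 or 4 (0.058 and 0.11, PL vs LG). Both were also lost under quantile normalization (-0.74 and -0.90, limma adjusted p = 0.18 and 0.12), with the compared stages alone (limma adjusted p = 0.058 and 0.061) and with the replicate block (limma adjusted p = 0.084 and 0.17), and PL vs MG under median ratio scaling (-1.01, limma adjusted p = 0.068). W2 was higher than PL by 2.00 ± 0.37 (limma adjusted p = 0.0021), or 1.32 above the median of all rows. FOXA1 was the only member whose calls at PL and for W2 vs PL held under every alternative tried, with differences of -2.14 to -0.87 and 1.31 to 2.93. Against the other 4 stages W2 was higher by 1.13 (limma adjusted p = 0.055; exact permutation p = 0.020). The genes most like FOXA1 were SMAP1 (r = 0.952) and SPTLC1 (0.951).

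KIT, on chromosome 8 at 41402334 to 41492306, measured 32.0, 23.0 and 21.7 units at MG, 51.0, 17.6 and 50.1 at LG, 22.5, 9.72 and 11.9 at EL, 10.6, 9.41 and 6.04 at PL, and 28.3, 44.2 and 27.5 at W2. The PL samples were below all samples of MG, LG and W2 and overlapped those of EL. The PL difference was -1.52 ± 0.33 (log2 fold change ± SE, limma adjusted p = 0.0052; exact permutation p = 0.0066, two-sided), or -1.05 relative to the median of all rows. Under median ratio scaling the difference was -0.98 (limma adjusted p = 0.074). PL vs LG gave -2.01 ± 0.42 (limma adjusted p = 0.0087). In the main fit this was the largest change of any member apart from KRT7. It was also the only one that passed with a size of 2 or more on the log2 scale, as 2.7% of all rows did. FOXA1 for W2 vs PL was close at 1.997, and reached 2.93 among the alternatives. As a ratio of mean units FOXA1 changed more, from 0.241 at PL to 2.5 at W2, against 39.55 at LG and 8.698 at PL for KIT. The ranking thus rests on the constant added before taking logs. The PL vs LG change of KIT did not pass with the compared stages alone (limma adjusted p = 0.11) or with the replicate block (-1.65, limma adjusted p = 0.13). PL vs MG gave -1.52 (limma adjusted p = 0.021), which was lost without MG sample 1 or 3 or PL sample 6 (limma adjusted p = 0.054 to 0.068). It was lost as well under median ratio scaling (-0.88, limma adjusted p = 0.24), quantile normalization (-0.94, limma adjusted p = 0.21) and the replicate block (-1.30, limma adjusted p = 0.12). From PL to W2 KIT rose by 1.88 ± 0.42 (limma adjusted p = 0.0057), and under median ratio scaling by 1.16 (limma adjusted p = 0.10). The genes most like KIT were FMOD (r = 0.886), a proteoglycan of connective tissue, and RPL35A (0.880).

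KITLG, the ligand of KIT, was measured at 17.2, 23.7 and 8.31 units at MG, 19.6, 18.6 and 13.4 at LG, 19.1, 5.60 and 14.8 at EL, 6.43, 7.30 and 6.65 at PL, and 23.0, 35.6 and 28.3 at W2. It was lower at PL (-1.27 ± 0.33, limma adjusted p = 0.014) and higher at W2 than at PL (1.99 ± 0.42, limma adjusted p = 0.0043). The ligand and the receptor were both lowest on average at PL, and r over the 15 samples was 0.74. FOXA1 and KIT had an r of 0.80, and CDH1 and FOXA1 also 0.80 (rho 0.91). EPCAM had no r above 0.46 with any other member.

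**Figure D4:**
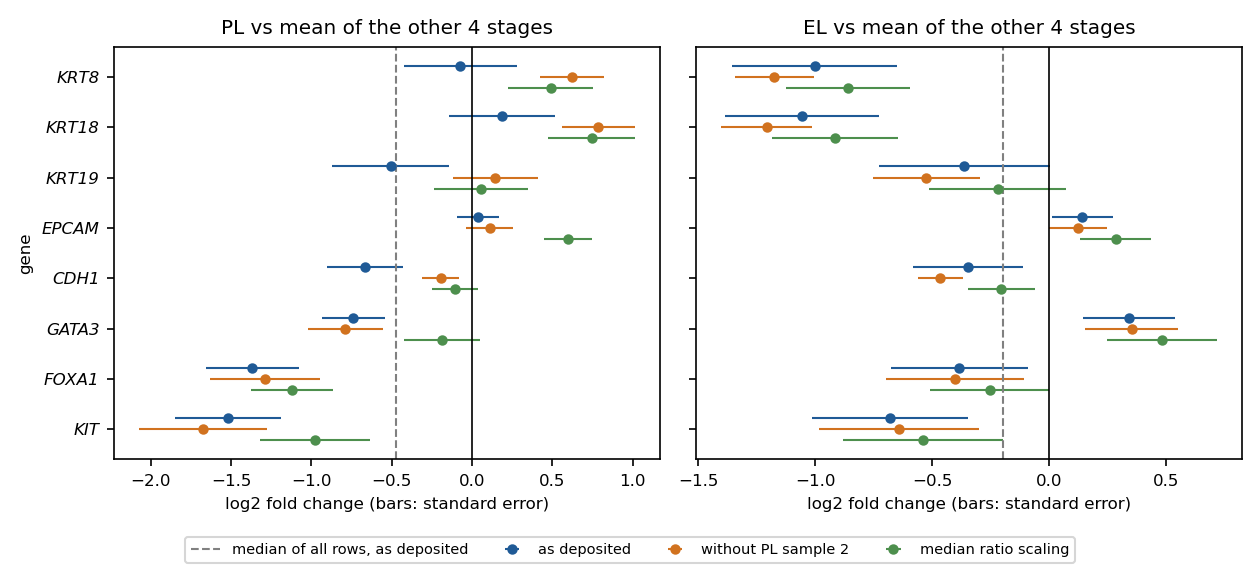
Log2 fold changes (x axis; bars are standard errors) of 8 members (y axis; KRT7 is left out because it was listed at 0 in 6 samples) at PL and at EL against the mean of the other 4 stages. Blue points are the values as deposited, orange points leave out PL sample 2, green points use median ratio scaling, and the dashed line is the median of all rows as deposited (-0.47 and -0.20). At PL, KIT and FOXA1 lay below the dashed line in all 3 settings, and KRT8 and KRT18 lay above it. The line does not show the medians at PL of the orange and green settings, which were -0.29 and -0.07.

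Among other luminal and epithelial genes, 25 of 28 listed were measured, and 7 were lower at PL (limma over all rows), among them TFAP2C (-1.93), GRHL2 (-1.17), TBX3 (-1.13) and the epithelial splicing factor ESRP1 (-0.64). That count was close to the 27.3% of all rows that were lower, and the list median of -0.39 was nearer 0 than the median of all rows (-0.47). ELF3, an epithelial transcription factor, had a difference of 1.18 that did not pass (limma adjusted p = 0.11). For W2 vs PL, 6 of the 25 were higher, a smaller share than the 30.4% of all rows, with a list median of 0.77 against 0.68. TFAP2C, a luminal transcription factor, measured 94.3, 83.4 and 111 units at MG, 100.3, 80.3 and 52.2 at LG, 46.4, 15.6 and 21.6 at EL, 10.1, 27.9 and 22.1 at PL, and 143, 161 and 132 at W2. Its PL samples overlapped those of EL, and both stages lay below MG, LG and W2.

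Markers of other cells were counted in the same comparison, in which 27.3% of all rows were lower at PL and 3.03% were higher. The summed level of 6 fibroblast genes was 472 to 1087 units at PL against 1401 to 2632 at W2, and 4 of the 6 were lower at PL. Of 4 measured leukocyte genes 3 were lower at PL, with sums of 12.6 to 21.2 units against 41.1 to 50.8 at W2, and of 4 measured endothelial genes 1 was lower (KDR; sums of 72.9 to 107 against 117 to 132). For mast cells, which also carry KIT, only 2 of 7 listed genes were measured. Their sum was 0.899 to 1.61 units at PL, 2.38 to 5.46 at MG and 1.84 to 5.04 at W2. MS4A2, the defining beta chain of the IgE receptor, was lower at PL (-0.81, limma adjusted p = 0.033). Its PL values of 0.532 to 0.813 units are near the added 0.5. FCER1A, the other measured gene, did not pass (-0.31, limma adjusted p = 0.60). Of 4 measured adipocyte genes CIDEA and LEP were higher and FABP4 lower at PL, with sums of 256 to 427 units against 499 to 616 at W2. Of 8 measured basal genes 1 was higher at PL (CNN1, 0.83), with sums of 1203 to 3235 units against 2031 to 2262 at W2. Milk protein genes, which define the secretory cells, summed to 225300 to 407100 units at PL and 104500 to 138400 at W2, and 5 of 7 were higher at PL. PAEP took 11.0 to 13.4% of all units at PL and 9.89 to 13.1% at W2, and so most of the sum at W2. The milk proteins other than PAEP took 9.14 to 28.5% at PL and 0.579 to 0.816% at W2. The part of these markers in the results for KIT, FOXA1, GATA3 and CDH1 was not tested.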

How the data were processed

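Members and gene lists were chosen with earlier results of these data known. The authors trimmed reads with Trimmomatic, aligned them to Sscrofa11.1 with HISAT2 and quantified transcripts with StringTie, keeping those with FPKM of at least 0.5 in a stage. The deposited values add up as TPM do and were treated as TPM. The sources do not state whether the RUVs correction is included. The table gives no reads per transcript, so the reads behind a single value are unknown here. The paper lists the reads of each library and points to raw counts held elsewhere, which were not used. The error is the spread between sows. No sequencing batch is named.

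Of 61773 transcripts, 32675 matched 14907 RefSeq genes and were summed per gene. Another 29047 assembled transcripts were summed in 11061 loci, and 51 were unmatched. Assembled transcripts could not be assigned to members, so member levels cover reference transcripts alone. Together 26019 gene and locus rows were tested as log2(value + 0.5), without further scaling, in limma 3.58.1 (R 4.3.3) with all 5 stages in 1 fit and a variance trend. There were 10 pairwise comparisons, 5 of a stage against the mean of the other 4, and Benjamini-Hochberg adjustment over all rows. Single values were tested by exact permutation (scipy 1.17.1). With 3 samples against 3, such an exact test cannot go below p = 0.10. On simulated data for PL against the other stages, 170 of 200 planted changes (log2 of 2) among 26019 rows were recovered and 7 unchanged rows were called. For W2 vs PL 154 of 200 were recovered and 9 unchanged rows were called. Among 61773 transcripts 136 of 200 were recovered for PL and 108 for W2 vs PL, with 5 unchanged ones called in each. Changes were planted only in rows with a mean level above about 10 units. Noise was independent and normal, with no general shift and no outlying sample. These rates therefore do not carry over to FOXA1, to smaller changes or to a shift of many rows.

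All members and their transcripts are named. Lists are given by counts and up to 4 genes of smallest p. NECTIN2, NECTIN4, JUP and ELF3 are named outside that rule. Likeness is Pearson's r over the 15 counted samples, and some genes it names are not reported here. Sample numbers did not pair samples: deviations of same-numbered samples correlated by a median of -0.024 over 19 pairs, against -0.050 over 71 others. Alternatives were the pseudocount, a filter on low values, median ratio scaling, quantile normalization, a replicate block, all 6 samples, the near-identical samples counted once, the compared stages alone, variance settings and each sample left out.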

Additional observations from a re-analysis of the deposited data

How the results depend on the processing

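Of 12 member differences that passed, 251 of 308 alternative values also passed with the same direction, 57 no longer passed and 0 reversed. Those of FOXA1 at PL and for W2 vs PL passed in all. KIT at PL and for W2 vs PL was lost under median ratio scaling and quantile normalization only, and GATA3 at PL under these and the replicate block. CDH1 at PL passed in 6 of 25 alternatives. Among differences that did not pass, EPCAM at PL turned from 0.036 to -0.017 without PL sample 6 (-0.017 to 0.11 with a sample left out), and KRT19 at PL from -0.51 to 0.056 under median ratio scaling and to 0.15 without PL sample 2 (-0.91 to 0.15 with a sample left out).

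For the 10 pairwise comparisons 4 member genes passed in at least 1. All 6 samples per stage gave 9, near-identical samples counted once 7, and changes of 2 or more on the log2 scale numbered 1. Median ratio scaling also gave 4, but with EPCAM and KRT18 in place of CDH1 and GATA3. Quantile normalization gave 3 (EPCAM, FOXA1 and KIT). The compared stages alone gave 4, with KRT7 in place of CDH1. The share of all rows that passed moved too. For W2 vs PL it was 32.8% in the main fit, 63.3% with all 6 samples, 13.1% under median ratio scaling and 26.8% without PL sample 2. Leaving out a sample gave 2 to 6, the lowest without W2 sample 3 or 6 (GATA3 and CDH1 lost) and the highest without PL sample 2 (KRT8 and KRT18 added). Against the other 4 stages, 4 passed: median ratio scaling, quantile normalization and the replicate block gave 2 each, all 6 samples 8, the fold threshold 0, and samples left out 3 to 6. The 2 genes kept under the block were FOXA1 and KIT, and under either scaling they were FOXA1 and EPCAM. For transcripts 3 passed: either scaling gave 1, all 6 samples 11, near-identical samples counted once 8, the compared stages alone 0, the fold threshold 1, and samples left out 1 to 5. The exact permutation test at PL (p below 0.05, unadjusted) called 4 members, and 3 to 4 with a sample left out. No share over all rows is given for that exact test or for the transcript counts under these settings. For ratios, 1 of 4 had an exact p below 0.05 in a stage, against 2 with a pseudocount of 0.1, 4 with all 6 samples, and 1 to 3 with a sample left out. Counts with all 6 samples rest on values that are near-copies of each other. The cause of the other shifts was not tested, and the compared stages alone gave no value for a stage against the rest.

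The 3 samples per stage limit every test, and FOXA1, at 0.161 to 3.19 units, rests on the lowest signal. Numbers shared between stages did not pair the samples, so calls lost under the replicate block are not read as weaker effects.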
